A study of Mus musculus with 16 samples.

Results

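The 10 genes described here belong to the YAP and TEAD pathway and were followed through the hippocampal cultures of this study, chosen by name as the rows of the deposited count tables for Yap1, Wwtr1, Tead1, Lats2, Amotl2, Ajuba, Ctgf, Cyr61, Nuak2 and Ankrd1. They were 10 of 54532 genes in the tables, and all 10 names had exactly 1 row in each table. RNA had been sequenced in bulk from primary hippocampal cells of newborn mice, taken at postnatal day 1 to 2 by the labels. The cells came from wild type (WT) mice or from Shank3∆11(−/−) (KO) mice, a line with both copies of Shank3 deleted in part, in which some shorter transcripts of the gene remain. Shank3 encodes a scaffold protein of excitatory synapses. From day in vitro (DIV) 9 the cultures received either vehicle (Veh) or lithium (Li) at 0.1 mmol/l for 5 days, and RNA was collected at DIV 14. The 4 groups are called WTVeh, WTLi, KOVeh and KOLi, with 4 libraries each. Libraries of the same number (replicates 1 to 4) were taken as the same experiment, and a Veh and a Li library of the same genotype and number as the same culture, pooled from the hippocampi of several pups. Replicate 4 was sequenced in a later-numbered batch (batch 2) than the other 3 (batch 1). The comparisons ask whether genotype and Li change the expression of these genes.

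YAP (Yap1) and its paralog TAZ (Wwtr1) are transcriptional coactivators that carry mechanical and cell-contact signals into the nucleus. They do not bind DNA themselves but act through the TEAD family of transcription factors, such as TEAD1. The kinases of the Hippo pathway, among them LATS2, phosphorylate YAP and TAZ and keep them in the cytoplasm. Matricellular proteins such as CTGF and CYR61 are classic targets, and in the brain the pathway is known for its activity in astrocytes, neural progenitors, ependymal and vascular cells rather than in mature neurons.

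TEAD factors bind the letters GGAATG, and promoters of these genes were searched for this site. The genes were chosen as members and targets of the pathway, so the share with the site is not independent of that choice. RefSeq promoter windows (GRCm38.p6, 250 bases before to 50 after the transcription start, sequences from RefSeq) were matched for 7 of the 10 genes, with 9 windows in all. Ctgf, Nuak2 and Tead1 had no entry. The motif GGAATG, on either strand, was in 8 of the 9 windows and in at least 1 window of all 7 genes. The 2 windows of Wwtr1 overlap almost wholly and hold the same site, which is counted in both. For comparison, the motif was in 14.7% of 32851 mouse promoter windows of the same length. Ajuba and Ankrd1 held 2 copies each, as did 1.36% of all windows at 2 or more copies. The AP-1 motif TGANTCA, searched on both strands in the same way, was in 0 of the 9 windows and in 7.81% of all windows. The 4 windows below are written 5′ to 3′ on the strand of the gene, with the TEAD motif (as GGAATG or its reverse complement CATTCC) in capitals. Cyr61 and Ajuba are shown because they were called lower in KO cultures below, with Veh and with Li. Amotl2 is shown because it was called lower in KO with Li, though not with Veh. Ankrd1 is shown because it carries 2 copies while hardly any of its reads were found.
Cyr61, chr3:145649936-145650235, minus strand: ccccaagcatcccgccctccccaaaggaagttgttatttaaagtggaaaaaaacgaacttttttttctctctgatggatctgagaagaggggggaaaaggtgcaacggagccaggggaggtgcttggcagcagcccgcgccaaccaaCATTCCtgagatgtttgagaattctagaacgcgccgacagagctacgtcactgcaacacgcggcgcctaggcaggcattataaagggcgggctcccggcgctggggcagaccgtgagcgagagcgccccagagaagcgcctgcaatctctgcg
Ajuba, chr14:54577612-54577911, minus strand: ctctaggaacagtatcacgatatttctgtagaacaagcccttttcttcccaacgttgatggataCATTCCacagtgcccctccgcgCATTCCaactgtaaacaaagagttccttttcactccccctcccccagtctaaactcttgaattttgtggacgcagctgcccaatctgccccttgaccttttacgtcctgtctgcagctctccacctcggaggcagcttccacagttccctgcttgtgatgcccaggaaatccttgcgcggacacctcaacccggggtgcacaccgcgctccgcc
Amotl2, chr9:102717554-102717853, plus strand: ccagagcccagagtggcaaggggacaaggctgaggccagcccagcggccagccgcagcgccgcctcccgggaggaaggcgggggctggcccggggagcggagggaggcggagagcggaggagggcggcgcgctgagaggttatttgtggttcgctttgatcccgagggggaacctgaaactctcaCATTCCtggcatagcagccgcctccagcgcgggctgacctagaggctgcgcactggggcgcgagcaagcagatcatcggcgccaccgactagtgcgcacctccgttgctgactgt
Ankrd1, chr19:36119795-36120094, minus strand: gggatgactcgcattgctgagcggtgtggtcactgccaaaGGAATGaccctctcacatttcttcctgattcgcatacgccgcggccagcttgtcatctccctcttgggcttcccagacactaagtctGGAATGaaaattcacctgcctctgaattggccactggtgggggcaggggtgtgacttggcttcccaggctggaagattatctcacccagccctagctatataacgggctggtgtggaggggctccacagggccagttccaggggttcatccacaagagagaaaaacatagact
Counted from the transcription start as base 0, the first base of the motif stood at -103 in Cyr61, at -186 and -164 in Ajuba, at -65 in Amotl2, and at -210 and -123 in Ankrd1. In Yap1 it stood at -141, in the first window of Wwtr1 at -136 and in that of Lats2 at 4. A match of these letters does not show that a factor binds there.

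Between 16123067 and 35188300 reads per library were assigned to genes, with a median of 22041966. The label check rests on Shank3, whose KO to WT ratio was 0.403, 0.376 and 0.367 in replicates 1, 3 and 4 under Veh, but 0.956 in replicate 2. Under Li the ratios were 0.387, 0.404 and 0.369, and 0.845 in replicate 2. The libraries labelled KO replicate 2 thus went against their label by this gene, and counts of genotype calls are given below with and without replicate 2. Levels are given as CPM, the usual per-library normalisation of read counts (here to the library size scaled by the TMM method). Each fold change and adjusted p comes from edgeR's quasi-likelihood test over 14783 genes with the replicate as a block, and a gene was called when its Benjamini-Hochberg adjusted p was under 0.01 and its fold above 1.2.

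Per kilobase of gene model, the matricellular targets were the most abundant of the 10 genes in WTVeh. The mean was 64.2 ± 39.9 CPM per kb for Ctgf and 50.2 ± 26.2 for Cyr61 (SD, n = 4), with Ctgf above Cyr61 in 4 of 4 WTVeh libraries and in 10 of all 16. Wwtr1 followed at 18.6 ± 3.88 and Amotl2 at 12.3 ± 5.47 CPM per kb, each above the next gene in the order in 4 of 4 WTVeh libraries. Ajuba (9.83 ± 5.91), Lats2 (8.89 ± 2.19), Nuak2 (8.10 ± 4.54), Tead1 (7.67 ± 3.08) and Yap1 (6.52 ± 0.750) lay within each other's spread, and each neighbouring pair was ordered that way in only 2 of 4 WTVeh libraries. Ankrd1 was last at 0.00572 CPM per kb.

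The coactivator genes Yap1 and Wwtr1 and the factor gene Tead1 were not called in KOVeh. Yap1 stood at 63.7, 62.2, 50.1 and 65.4 CPM in WTVeh replicates 1 to 4, and at 39.3, 63.4, 30.7 and 39.1 CPM in KOVeh. The KOVeh libraries of replicates 1, 3 and 4 lay below all WTVeh libraries, while the library labelled KOVeh replicate 2 lay among them. The fitted log2 fold change of Yap1 was -0.53 ± 0.12 (SE), with an adjusted p of 0.0127. Wwtr1, which encodes TAZ, stood at 96.3, 93.3, 61.9 and 104 CPM in WTVeh and at 51.1, 86.2, 40.1 and 43.1 CPM in KOVeh. Here too only the library labelled KOVeh replicate 2 reached the WTVeh range, and the log2 fold change was -0.74 ± 0.20 (adjusted p = 0.0215). Tead1 stood at 87.3, 70.3, 93.6 and 165 CPM in WTVeh and at 75.3, 90.1, 59.0 and 93.7 CPM in KOVeh. Of its 4 KOVeh libraries, 3 fell within the WTVeh range, and the log2 fold change was -0.35 ± 0.17 (adjusted p = 0.165). In a fit to replicates 1, 3 and 4 alone, all 3 genes were called lower in KOVeh, with log2 fold changes of -0.71 for Yap1 (adjusted p = 0.000671), -0.94 for Wwtr1 (0.00502) and -0.55 for Tead1 (0.00606).

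Among the regulators, Ajuba was called lower in KOVeh and Lats2 and Amotl2 were not. Lats2, the kinase that inhibits YAP and is itself induced by YAP, stood at 54.8, 56.4, 51.9 and 84.7 CPM in WTVeh and at 53.9, 47.6, 46.3 and 42.1 CPM in KOVeh. The difference was mostly that of replicate 4, where WTVeh was high, and the log2 fold change was -0.36 ± 0.17 (adjusted p = 0.154). Lats2 shares 2955 exon bases with the gene model Gm49361 on the same strand, for which 0 reads were counted in any library, so reads of that stretch may have gone uncounted. Amotl2, an angiomotin that binds YAP at cell junctions, stood at 63.0, 64.2, 53.7 and 128 CPM in WTVeh and at 32.3, 61.8, 25.1 and 45.2 CPM in KOVeh. The library labelled KOVeh replicate 2 lay among the WTVeh libraries and the other 3 lay below them. Its log2 fold change of -0.92 ± 0.21 narrowly missed the threshold (adjusted p = 0.0109). Ajuba, a LIM domain protein that binds LATS kinases and restrains them, stood at 26.7, 36.3, 14.9 and 65.4 CPM in WTVeh and at 9.00, 26.7, 5.48 and 15.4 CPM in KOVeh. KOVeh was the lower in each of the 4 pairs, although the groups overlapped across experiments. The log2 fold change was -1.37 ± 0.25 (adjusted p = 0.00458).

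The target genes Ctgf, Cyr61 and Nuak2 were called lower in KOVeh by the largest differences of the 9 tested genes. Ctgf (chr10:24595442-24598683, plus strand), which encodes connective tissue growth factor, stood at 130, 174, 84.4 and 346 CPM in WTVeh and at 41.7, 99.6, 15.8 and 78.6 CPM in KOVeh. The KOVeh library was the lower in all 4 pairs, with ratios of 0.320, 0.573, 0.187 and 0.227, and only the library labelled KOVeh replicate 2 reached the WTVeh range. The log2 fold change was -1.71 ± 0.28 (adjusted p = 0.00315). An antisense gene model, Gm15270, overlaps 665 exon bases of Ctgf and held 1 to 10 reads per library. How strand was set in counting is not given, so reads of that stretch may have gone uncounted. Cyr61 (chr3:145646976-145649981, minus strand), another secreted matricellular protein of the CCN family, stood at 72.7, 99.9, 56.8 and 176 CPM in WTVeh and at 27.5, 61.1, 12.3 and 56.6 CPM in KOVeh. All 4 pairs again had the lower value in KOVeh, and the log2 fold change was -1.45 ± 0.26 (adjusted p = 0.00450). Nuak2 (chr1:132316126-132333488, plus strand), a kinase related to AMPK and both a target and a promoter of YAP activity, stood at 22.02, 33.4, 15.5 and 56.0 CPM in WTVeh. In KOVeh it stood at 4.92, 20.6, 3.67 and 12.7 CPM, with ratios of 0.223, 0.616, 0.236 and 0.227. Its log2 fold change was -1.75 ± 0.28 (adjusted p = 0.00293). In the fit to replicates 1, 3 and 4 alone the log2 fold changes were -2.01 for Ctgf, -1.68 for Cyr61 and -2.12 for Nuak2.

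Ankrd1, an ankyrin repeat protein best known from heart muscle, was close to silent and did not pass the filter on low counts. Its reads came to 17 over all 16 libraries, with 0 to 5 per library and 10 libraries at 0. In KOLi it had 0 reads in all 4 libraries, and a count of 0 allows up to 3 reads, or 0.102 to 0.186 CPM of the unscaled totals of these libraries. No fold change is given for it.

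**Figure D1:**
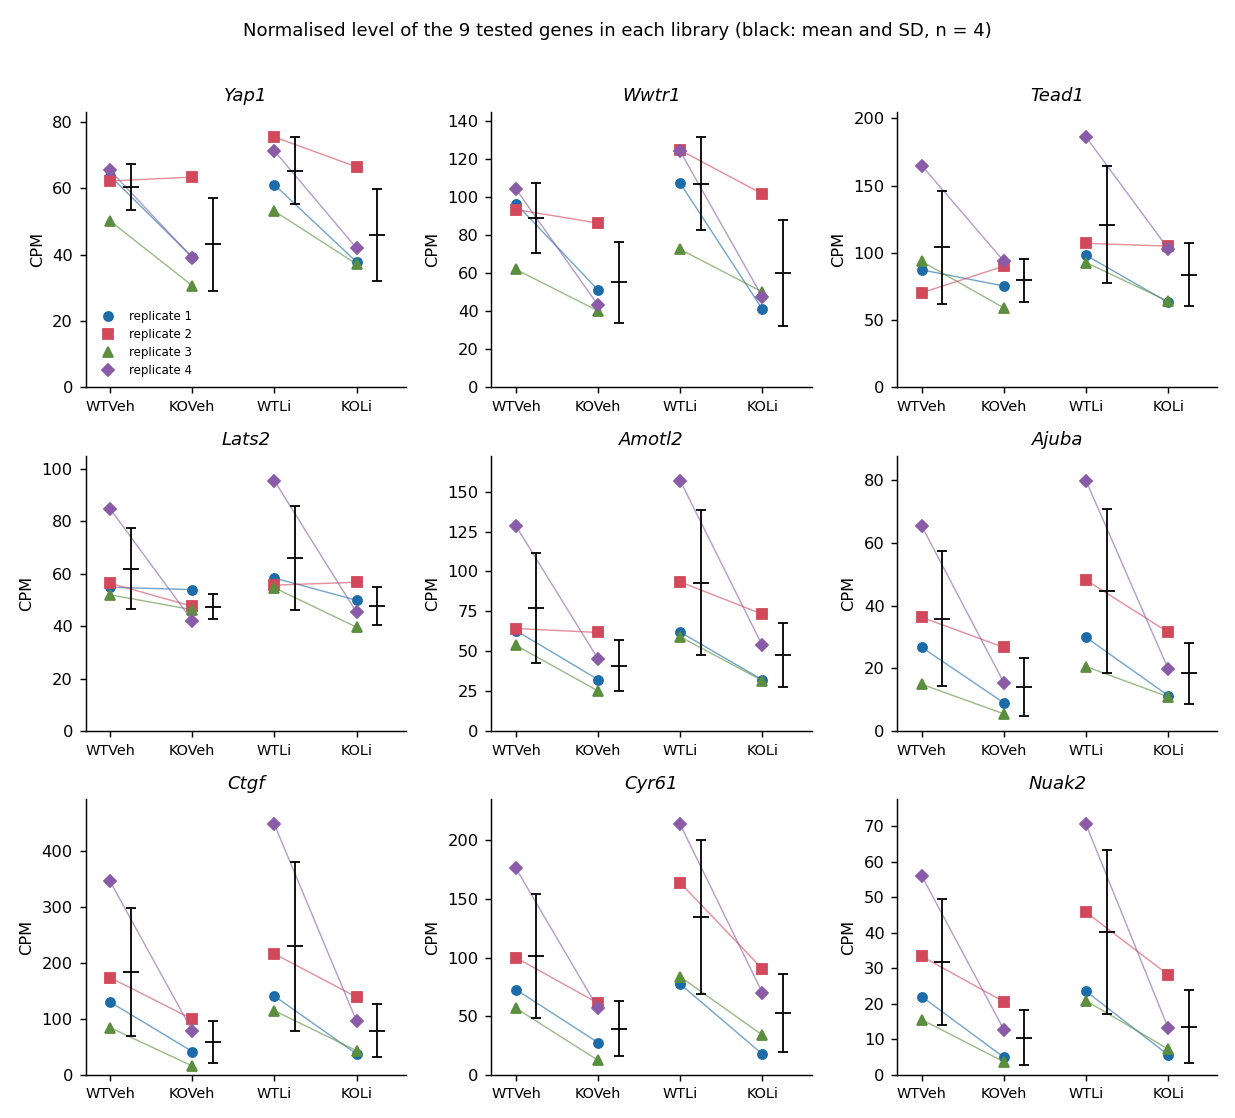
CPM of the 9 tested genes (vertical axes, linear from 0) in each of the 16 libraries by group, with coloured symbols and lines for the replicate number and black marks for the mean and SD of 4 libraries. The lines slope down from WT to KO for Ctgf, Cyr61, Nuak2, Ajuba, Amotl2 and Wwtr1 in all pairs. The squares of replicate 2 are high among the KO libraries, at 99.6 CPM in KOVeh for Ctgf against 41.7, 15.8 and 78.6 in the others.

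In all, 4 of the 9 tested genes (Ctgf, Cyr61, Nuak2 and Ajuba) were called lower in KOVeh and 0 higher, where 3.42% of all tested genes were called lower, 2.08% higher and 5.5% in either direction. All 9 had a fold change below 0, with a median of -0.92 against -0.01 over all genes. Only Nuak2 and Ctgf stood within the lowest 0.5% of all tested genes by log2 fold change, at percentiles of 0.399 and 0.453. The KOVeh library was the lower in all 4 pairs for 7 of the 9 genes, as for 17.2% of all genes, the exceptions being Yap1 and Tead1 in replicate 2 (ratios of 1.02 and 1.28). For none of the 9 genes (0) did the groups separate without overlap, as 2.86% of all genes did, and 6 of 9 separated without replicate 2 (16.3% of all genes). The calls rest on the replicate block: without it, 0 of the 9 genes and 0 of all genes were called. The adjusted p of Ctgf was then 0.310. With the 2 compared groups alone in the fit 0 of the 9 and 0 of all genes were called too. With replicates 1, 3 and 4 alone 8 of the 9 were, all but Lats2, where 7.53% of all genes were called lower. Without WTVeh replicate 1, KOVeh replicate 3 or KOVeh replicate 4, 0 of the 9 genes were called, where 47, 71 and 73 of all genes were. Without KOVeh replicate 1 it was 1 of the 9 (240 of all genes). Without WTVeh replicate 4 it was 2 (308) and without WTVeh replicate 3 it was 3 (399). Without WTVeh replicate 2 or KOVeh replicate 2 the count was 7 and 6 (1343 and 671 of all genes). With all libraries 813 of all genes were called, so the calls over all genes changed as well.

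Levels of the targets also differed between experiments. The mean of Ctgf over the 4 libraries of an experiment was 6.19, 7.24, 5.67 and 7.53 on the log2 CPM scale for replicates 1 to 4, and that of Nuak2 was 3.46, 4.94, 3.28 and 4.84. Both genes were thus higher in replicates 2 and 4 than in 1 and 3. Lats2 ranged only from 5.58 to 5.97 and Yap1 from 5.39 to 6.06. The coefficient of variation within WTVeh was 62.2% for Ctgf and 11.5% for Yap1.

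With Li in both arms, 5 of the 9 genes were called lower in KOLi than in WTLi. Ctgf stood at 141, 216, 115 and 448 CPM in WTLi and at 37.3, 139, 43.3 and 96.2 CPM in KOLi. Its log2 fold change was -1.52 ± 0.28 (adjusted p = 0.00453). Cyr61 stood at 77.4, 164, 83.6 and 214 CPM in WTLi and at 17.7, 90.4, 33.9 and 70.0 CPM in KOLi, with a log2 fold change of -1.41 ± 0.26 (adjusted p = 0.00462). For both genes only the library labelled KOLi replicate 2 reached the WTLi range. Nuak2 stood at 23.5, 45.8, 20.9 and 70.5 CPM in WTLi and at 5.60, 28.2, 7.25 and 13.2 CPM in KOLi (log2 fold change -1.64 ± 0.28, adjusted p = 0.00328). Ajuba stood at 29.9, 48.2, 20.6 and 79.9 CPM in WTLi and at 11.3, 31.5, 10.9 and 19.8 CPM in KOLi (-1.23 ± 0.25, adjusted p = 0.00637). The YAP-binding angiomotin Amotl2 passed the threshold here, at 62.0, 93.5, 59.1 and 157 CPM in WTLi and 32.1, 73.3, 31.6 and 53.6 CPM in KOLi (-0.93 ± 0.21, adjusted p = 0.00937). The remaining 4 genes were not called, at log2 fold changes of -0.88 for Wwtr1 (adjusted p = 0.0103), -0.53 for Yap1 (0.0117), -0.50 for Tead1 (0.0529) and -0.44 for Lats2 (0.0770).

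These 5 calls of 9 compare with 3.6% of all genes called lower, 2.76% called higher and 6.36% in either direction. The KOLi library was the lower in all 4 pairs for 8 of 9 genes (20.6% of all genes), Lats2 in replicate 2 being the exception with a ratio of 1.02. Again 0 of 9 genes separated without overlap (2.5% of all genes), and 8 of 9 did so without replicate 2 (16.5% of all genes). Without the replicate block 0 of the 9 and 0 of all genes were called (adjusted p of 0.247 for Ctgf). With replicates 1, 3 and 4 alone 8 of the 9 were called lower (7.51% of all genes). Without any of WTLi replicates 1, 3 and 4 or KOLi replicates 1 and 4, 0 of the 9 were called. Over all genes 350, 219 and 84 were called without these WTLi replicates, and 127 and 171 without these KOLi replicates. Without KOLi replicate 3 it was 1 of the 9 (320 of all genes). Without WTLi replicate 2 it was 4 (781) and without KOLi replicate 2 it was 7 (927). With all libraries 940 of all genes were called. KOLi against WTLi uses no library of KOVeh against WTVeh, but each culture gave 1 library to both comparisons.

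**Figure D2:**
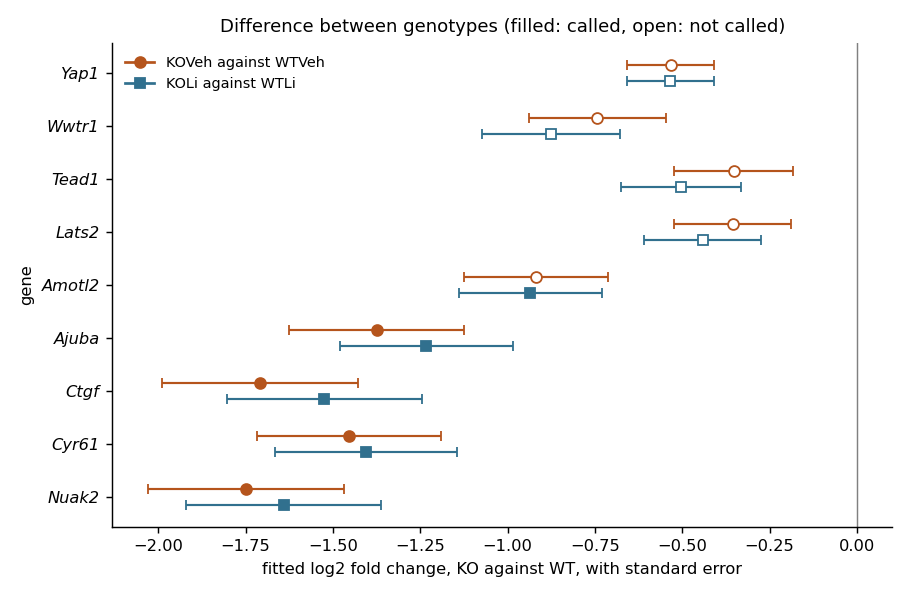
Fitted log2 fold change of KO against WT (horizontal axis) with its standard error for the 9 tested genes, circles for Veh and squares for Li, filled where the gene was called. All 18 points lie below 0, from -1.75 for Nuak2 under Veh to -0.35 for Tead1 under Veh.

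Markers of several cell types moved between the same libraries, and in bulk RNA fewer cells of a type and less RNA per cell cannot be told apart. The summed CPM of 10 endothelial markers did not overlap between the groups (0 of 7 tested markers called). It ran from 71.6 to 118 in WTVeh and from 23.7 to 69.4 in KOVeh. That of 10 mural cell markers ran from 141 to 283 and from 59.8 to 189 (1 of 7 called lower), and that of 10 ependymal markers from 133 to 304 and from 57.0 to 317 (0 of 9 called). The sum of 12 markers of meningeal fibroblasts ran from 1581 to 1682 in WTVeh and from 1168 to 1389 in KOVeh (2 of 12 called lower), with no overlap, and that of 10 oligodendrocyte markers from 162 to 563 and from 113 to 199.6 (1 of 9 called lower). The sum of 10 astrocyte markers ran from 5250 to 8281 and from 4405 to 8516 (1 of 10 called higher), that of 12 neuron markers from 5253 to 7118 and from 6000 to 8410 (2 of 12 called higher), and that of 10 microglia markers from 29.5 to 279 and from 18.8 to 163 (0 of 10 called). Of all tested genes 3.42% were called lower in KOVeh and 2.08% higher. No listed marker (0 of all lists) was at 0 in all libraries, and neuron markers were abundant throughout. The KOVeh to WTVeh ratio of the endothelial sum was 0.472, 0.896, 0.331 and 0.454 in replicates 1 to 4, and that of the mural sum 0.520, 1.29, 0.424 and 0.487, both highest in replicate 2. Replicate 2 was also the highest for the astrocyte, meningeal fibroblast, ependymal and microglia sums. It was the lowest for the neuron sum, at 1.24, 0.9998, 1.18 and 1.40, and for the oligodendrocyte sum, at 0.639, 0.355, 0.558 and 0.695. In replicates 1, 3 and 4 alone, 3 of 10 astrocyte markers were called lower and 0 higher in KOVeh, against 1 higher with all replicates. In the same fit 5 of 9 ependymal, 5 of 12 meningeal fibroblast, 4 of 7 mural, 2 of 7 endothelial and 1 of 9 oligodendrocyte markers were called lower. There 6 of 12 neuron markers were called higher, and 0 of 10 microglia markers were called. Of all 14866 genes of that fit 7.53% were called lower, and 1647 were called in either direction, 1119 of them lower. For 8 of the 9 YAP and TEAD genes the ratio of replicate 2 was the highest of the 4 under Veh, and for 9 of 9 under Li, as for 36.9% and 32.2% of all genes. The part of these markers in the differences of the YAP and TEAD genes was not tested.

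**Figure D3:**
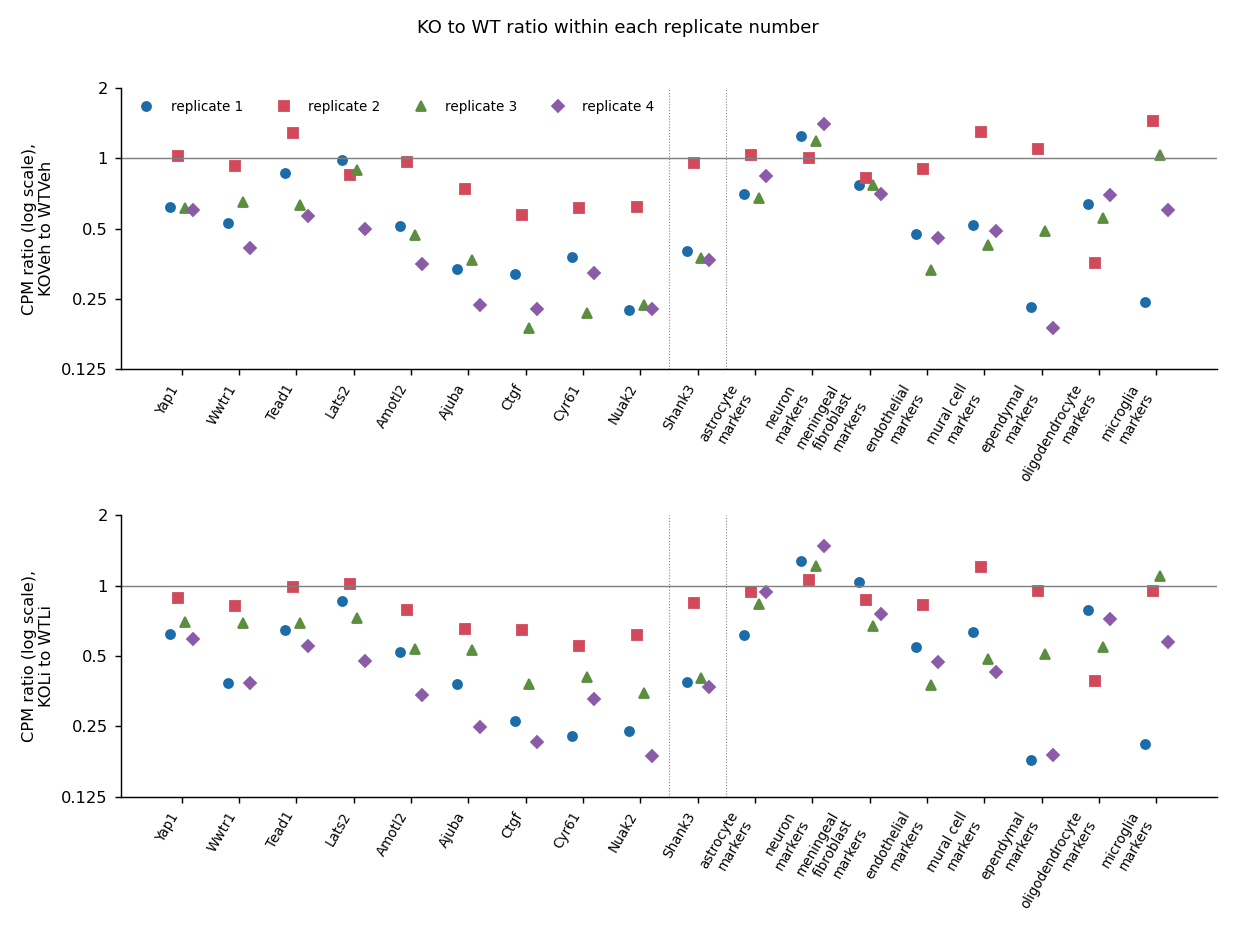
KO to WT ratio of CPM within each replicate number (vertical axis, log scale, 1 marked by a line) for the 9 tested genes, for Shank3 and for the summed markers of 8 cell types, under Veh (upper panel) and Li (lower panel). Replicate 2 (squares) lies nearer to 1 than the other replicates for Shank3, at 0.956 under Veh, and for most of the YAP and TEAD genes.

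The pathway around these genes was followed through 3 lists. Of 27 Hippo kinases, scaffolds and TEAD partners, all tested, 1 was called lower and 0 higher in KOVeh, a share near the 3.42% of all genes called lower. The list had a median log2 fold change of -0.22 against -0.01 over all genes. The gene called was Tead3, another TEAD factor, at 13.0, 15.2, 13.1 and 17.9 CPM in WTVeh and 7.64, 13.0, 6.17 and 10.5 CPM in KOVeh (-0.71 ± 0.13, adjusted p = 0.00507). All its KOVeh libraries lay below all WTVeh libraries, the library labelled KOVeh replicate 2 only just. The next smallest p-values were those of Taok1, a kinase upstream of the MST kinases, at 0.28 ± 0.08 (adjusted p = 0.0228), Tead2 at -0.34 ± 0.09 (0.0236) and Ptpn14, a phosphatase that binds YAP, at -0.90 ± 0.25 (0.0261), none of them called. Lats1, the paralog of Lats2, had a log2 fold change of 0.10 ± 0.07. Under Li the list again had 1 gene called lower (Tead3, -0.70 ± 0.13, adjusted p = 0.00508) and 0 higher, with a median of -0.21. In replicates 1, 3 and 4 alone 6 of the 27 genes were called lower in KOVeh, where 7.53% of all genes were, and 7 lower and 1 higher in KOLi, where 7.51% of all genes were lower.

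Of 16 further genes of a YAP target signature (22 genes with those already described), 1 was called lower in KOVeh and 0 higher, where 3.42% of all genes were called lower. A log2 fold change below 0 was found for 14 of the 16, as for 51.2% of all genes, and their median was -0.35. In replicates 1, 3 and 4 alone 9 of the 21 tested genes of the whole signature were called lower in KOVeh, and 9 in KOLi (7.53% and 7.51% of all genes). Both counts include Ctgf, Cyr61, Amotl2 and Nuak2, already counted above, and are not counts of the further genes. Myof, which encodes the membrane protein myoferlin, stood at 26.4, 21.2, 21.96 and 30.1 CPM in WTVeh and at 13.7, 21.4, 11.8 and 14.4 CPM in KOVeh (-0.73 ± 0.16, adjusted p = 0.00976). The library labelled KOVeh replicate 2 lay within the WTVeh range and the other 3 below it. Ccdc80, a secreted matrix protein, came next at -0.62 ± 0.15 (adjusted p = 0.0150), followed by Igfbp3, which binds insulin-like growth factors, at -0.48 ± 0.13 (0.0218). Under Li, Myof was again the gene called (-0.83 ± 0.16, adjusted p = 0.00549), 15 of 16 were below 0, and the median was -0.38.

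Within the CCN family of matricellular proteins, the members other than Ctgf and Cyr61 were not called. Wisp2 had the largest difference of the family but also the widest spread, at 39.6, 59.7, 20.99 and 241 CPM in WTVeh and 2.20, 47.7, 0.294 and 10.9 CPM in KOVeh. The library labelled KOVeh replicate 2 again stood among the WTVeh libraries, and the log2 fold change was -3.27 ± 0.80 (adjusted p = 0.0153). Nov went the other way, at 46.1, 44.7, 60.7 and 39.6 CPM in WTVeh and 46.6, 49.1, 87.7 and 58.2 CPM in KOVeh (0.31 ± 0.10, adjusted p = 0.0499). Wisp1 gave -0.65 ± 0.25 (adjusted p = 0.0862), and Wisp3 was under the filter. In replicates 1, 3 and 4 alone 3 of the 5 tested genes of the family were called lower, where 7.53% of all genes were. This count includes Ctgf and Cyr61, already counted above.

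**Figure D4:**
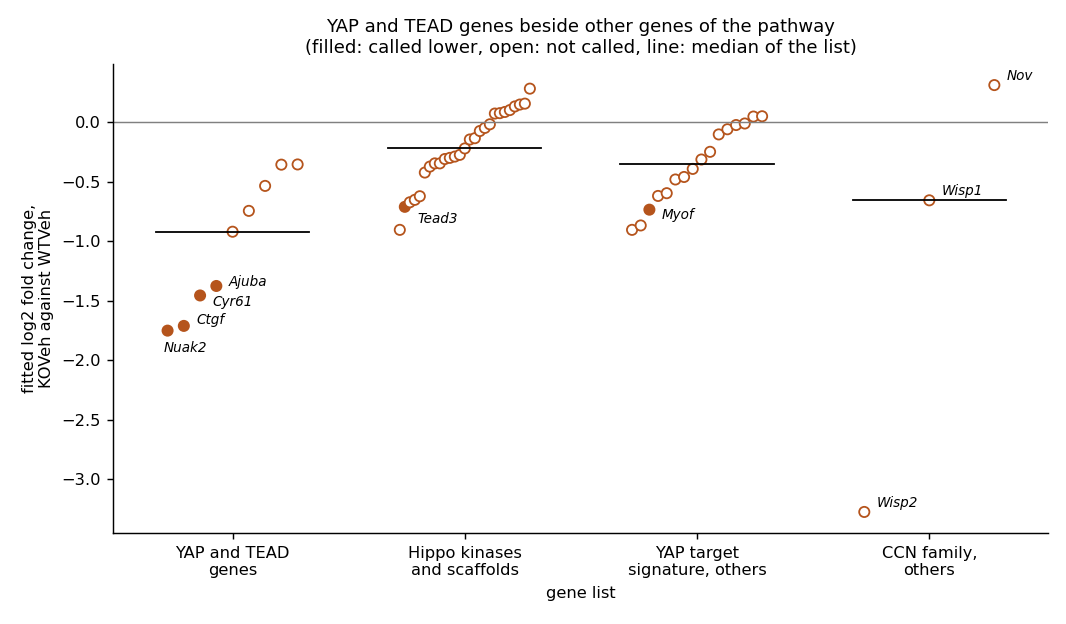
Fitted log2 fold change of KOVeh against WTVeh (vertical axis) for each tested gene of the 4 lists (horizontal axis, lists without the genes of the first), filled where called lower, with a line at the median of the list. The medians are -0.92 for the YAP and TEAD genes, -0.22 for the Hippo list, -0.35 for the other signature genes and -0.65 for the other CCN genes.

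Li did not change any of the 9 genes past the threshold in either genotype. In WTLi against WTVeh and in KOLi against KOVeh, 0 of 14783 genes were called by edgeR, with 217 and 225 genes at an unadjusted p under 0.05. DESeq2 and limma-voom called 0 as well. Because the libraries of a culture are correlated, by 0.507 in the fit, this test is strict for the treatment and lenient for the genotype. All 9 log2 fold changes were above 0 in both genotypes, from 0.09 for Lats2 to 0.39 ± 0.25 for Cyr61 in WT and from 0.00 for Lats2 to 0.50 ± 0.28 for Ctgf in KO, with adjusted p of 0.999 in WT and 0.99995 in KO for each. The medians were 0.25 in WT and 0.20 in KO, against 0.00 over all genes in both.

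By pairs, Ctgf was 1.08, 1.24, 1.36 and 1.29 times as high in WTLi as in WTVeh and 0.895, 1.40, 2.75 and 1.22 times as high in KOLi as in KOVeh. Cyr61 gave ratios of 1.06, 1.64, 1.47 and 1.21 in WT and 0.644, 1.48, 2.75 and 1.24 in KO. Both genes were thus higher in all WT pairs and lower in KO replicate 1 only. The WTLi library was the higher in all 4 pairs for 5 of 9 genes (Ctgf, Cyr61, Ajuba, Wwtr1 and Nuak2), against 8.79% of all genes, and the KOLi library for 2 of 9 (Ajuba and Nuak2), against 7.68%. In KO the ratios of Ajuba were 1.26, 1.18, 1.99 and 1.29, and those of Nuak2 1.14, 1.37, 1.97 and 1.04.

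With the culture as a block in edgeR, which compares Li and Veh within cultures, 7 of the 9 genes had an unadjusted p under 0.05 with a higher level in WTLi (5.49% of all genes) and 5 of 9 in KOLi (3.71%). Again 0 genes passed the adjusted threshold. In this fit Ajuba had log2 fold changes of 0.32 ± 0.09 in WT (adjusted p = 0.449) and 0.44 ± 0.10 in KO (adjusted p = 0.717). The corresponding values of Nuak2 were 0.33 ± 0.10 (adjusted p = 0.449) and 0.37 ± 0.12 (adjusted p = 0.717), and those of Ctgf 0.31 ± 0.14 (adjusted p = 0.501) and 0.48 ± 0.15 (adjusted p = 0.717).

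The difference between the Li effects of the genotypes was not called for any of the 9 genes. This interaction ranged from -0.15 ± 0.24 for Tead1 to 0.19 ± 0.38 for Ctgf on the log2 scale, with an adjusted p of 0.99989 for each. Over all genes 0 were called by edgeR, DESeq2 and limma-voom, with 112 genes at an unadjusted p under 0.05 in edgeR. The comparisons of Li with Veh share their libraries with the comparisons of genotype, so opposite signs between them are not independent.

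**Figure D5:**
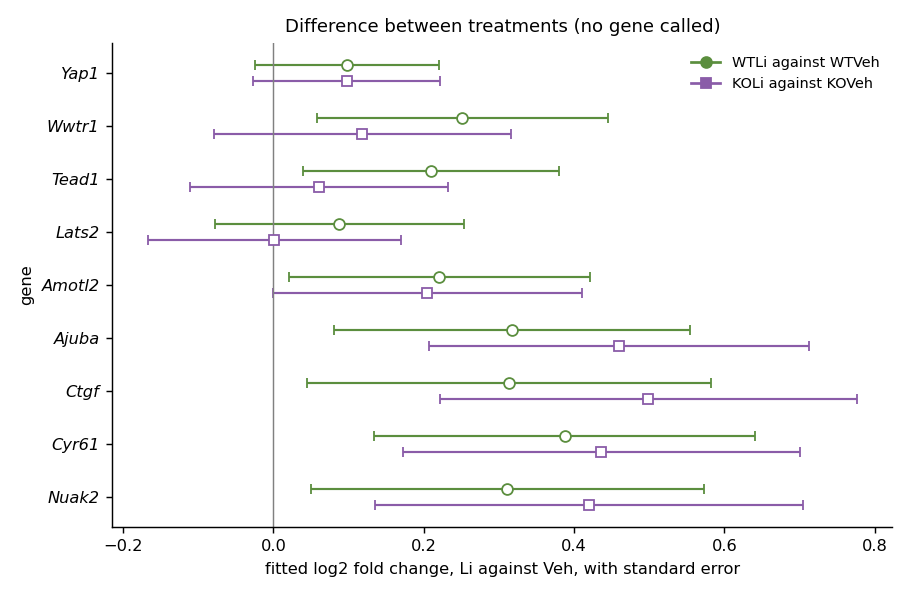
Fitted log2 fold change of Li against Veh (horizontal axis) with its standard error for the 9 tested genes, circles for WT and squares for KO, all open because none was called. The points run from 0.00 for Lats2 to 0.50 for Ctgf, both in KO.

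The genes whose levels over all 16 libraries were most like those of Ctgf, Cyr61 and Yap1 were looked up among all genes. By the root mean square difference of log2 CPM centred on each gene's mean, over the 12981 genes whose mean log2 CPM was 1 or more, the gene most like Ctgf was Palld (0.212), which encodes the actin-binding protein palladin. Nuak2 (0.239) and Cyr61 (0.240) were next, Ajuba ranked 7 and Amotl2 ranked 111. Wwtr1, Tead1, Yap1 and Lats2 came at ranks 549, 920, 993 and 1780 of the 12981 genes. The genes most like Cyr61 were Lama5 (0.238), a laminin chain of basement membranes, Ctgf, and Thbs1 (0.267), the matricellular protein thrombospondin 1. Those most like Yap1 were Gnai2 (0.0752), an inhibitory G protein subunit, Dusp16 (0.0878), a phosphatase of MAP kinases, and Vamp3 (0.0951), a vesicle fusion protein. A likeness of this kind includes the differences between genotypes and between experiments. The levels were centred but not scaled, so the ranks also depend on how widely each gene varied. A gene that varies little ranks far from one that varies widely even where both rise and fall together.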

How the data were processed

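RNA of 16 libraries, 4 per group, was measured by bulk sequencing. The authors deposited counts, whole numbers of reads per gene that were not normalized, for 54532 genes. Per the submitters' processing notes they used HISAT2 2.0.5, featureCounts 1.5.0-p3 and GRCm38.p6, while how they set strand is not given in these sources. The Li dose and the use of 4 experimental batches come from the paper. The labels give days in vitro from 14 to 29, different for each library, and the 14 days of the series text were used.

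Of 33134 genes of the biotypes kept by the study, 14783 passed filterByExpr (minimum count 15, minimum proportion 0.25). With R 4.3.3 and edgeR 4.0.16, TMM-scaled counts of all 4 groups were fitted by the quasi-likelihood test with group and replicate number as terms, after the study's design, which used limma. The log2 CPM values have a prior count of 2. The numbers were taken to pair the libraries as experiments, which the labels do not state. Deviations from the group means correlated by 0.224 to 0.557 between same-numbered libraries of WTVeh and KOVeh. Between those of WTLi and KOLi they correlated by 0.161 to 0.500. The KOVeh library most correlated with a WTVeh library had the same number for 3 of 4 WTVeh libraries. For WTLi and KOLi this held for 2 of 4, so the pairing across genotypes is not settled by these values. The series text gives 4 repeats of the experiment. The block takes out differences between these repeats, so p-values measure the spread that remains among libraries. The 2 libraries of a culture are treated as independent in this fit. Limits from counts of 0 cover counting error only.

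The genes, the lists (27 Hippo genes, 22 signature genes, 6 CCN genes and 8 sets of cell type markers) and the rules were chosen with earlier results of these data known. The rule named all 10 genes, the genes of the Hippo and signature lists called in KOVeh or else the 4 with the smallest p, the CCN family, the 3 genes most like Ctgf, Cyr61 and Yap1, and Shank3. Lats1 was added after its values were seen. Alternatives used DESeq2 1.42.0, limma 3.58.1 (voom, also with the culture as a random effect), RLE scaling, no TMM factors, no filter on counts, no replicate block, the sequencing batch in its place, parts of the samples, another threshold and each library left out in turn. The fits were tested on simulated counts that held no differences between replicates or cultures. That test therefore does not bear on how the calls depend on the replicate block or on libraries of the same culture.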

Additional observations from a re-analysis of the deposited data

Results flagged for a closer look

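In 36 groups of 4 libraries (9 genes by 4 groups), the highest library stood apart from the other 3 in 6. In replicate 4 these were Amotl2 in WTVeh at 128 CPM, Lats2 in WTVeh at 84.7 CPM and in WTLi at 95.4 CPM, and Tead1 in WTLi at 186 CPM. In replicate 2 these were the library labelled KOLi for Yap1, at 66.5 CPM, and for Wwtr1, at 101 CPM. The lowest library did not stand apart in any of the 36 groups.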

How the results depend on the processing

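Fold changes of KO against WT stayed below 0 for all 9 genes in both treatments under all alternatives run, and the calls did not. In KOVeh against WTVeh, where 4 of 9 YAP and TEAD genes and 813 genes in all were called, the counts were 7 and 2873 at an adjusted p under 0.05 with no minimum fold, 7 and 1891 by DESeq2, 8 and 1647 with replicates 1, 3 and 4 alone, and 0 and 15 with sequencing batch 1 alone. They were 0 and 0 without the replicate block, with the sequencing batch in place of the replicate number, and with the compared groups alone. By limma-voom the counts were 4 and 767. Adding a random effect of culture to that fit gave 5 and 513. Leaving out each library in turn gave 0 to 7 of the 9 genes and 47 to 1343 genes. In KOLi against WTLi, where 5 of 9 and 940 genes were called, the counts were 0 and 0 without the replicate block, with the sequencing batch in its place and with the compared groups alone, 0 and 7 with batch 1 alone, and 8 and 1758 with replicates 1, 3 and 4. At the looser threshold 3222 genes were called and by DESeq2 2047. By limma-voom the counts were 4 and 819 here, and 6 and 664 once a random effect of culture was added. Leaving out each library gave 0 to 7 of the 9 genes and 84 to 927 genes. The causes were not tested, except that batch 1 alone and the compared groups alone leave fewer samples. Batch 2 holds 1 library per group and allows no test: its KOVeh to WTVeh differences in log2 CPM were -2.14 for Ctgf, -2.13 for Nuak2, -1.64 for Cyr61 and -2.08 for Ajuba. Without TMM factors 603 of 808 called genes were lower in KOVeh (506 of 813 with them) and 645 of 900 in KOLi (532 of 940). Between Li and Veh and in the interaction, 0 genes were called under all alternatives, and fold changes near 0 changed sign under some. RLE scaling, no TMM factors, no filter on counts and limma-voom left the counts of called genes within 1.5 times. At these depths Ankrd1 was the member of the 10 genes that was too low to test.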
